A study of Mus musculus with 8 samples.

Results

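The 2 arrays of male mice reared with environmental enrichment and exposed to diesel exhaust (EE-DE) were compared with the 2 arrays of male mice reared in a standard cage and kept in clean air (C-C), so that both factors differed at once. These 4 of the 8 arrays of the series were taken by their labels, and all 55681 noncontrol probes of the array were considered. All animals were offspring of C57BL/6J dams, were weaned at postnatal day 27, spent postnatal days 28 to 55 in a chamber under the housing they were born into, and were killed at an age of 56 days. Enrichment was physical, by roomier cages furnished for exercise and shelter, and the exhaust was given at 90 µg/m3 for 8 hours a day over 28 days. RNA of 9 EE-DE and 7 C-C olfactory bulbs, each from another litter, was combined into 1 pool per group, and 2 arrays were hybridised with each pool. Each group was therefore 1 sample, no test of the condition was possible, and the spread between arrays holds no variation between mice. The other pools, standard cage with diesel exhaust (C-DE, 7 mice) and enrichment with clean air (EE-C, 8 mice), are given beside for some of the genes described. They share the C-C arrays with the EE-DE comparison.

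The olfactory bulb receives the axons of the olfactory sensory neurons of the nose and passes the signal on through mitral and tufted cells, under the control of granule and periglomerular interneurons that are renewed throughout life. Immediate early genes in these cells follow neuronal activity, interferon-stimulated genes are switched on by innate immune signalling, and clock genes follow the time of day. The bulb lies against the olfactory mucosa, whose supporting cells and glands carry their own detoxifying enzymes.

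Levels are log2 of the scanner's processed signal relative to the 75th percentile of the array, and a difference is the mean of the EE-DE arrays minus the mean of the C-C arrays. The range in brackets is over the 4 pairings of an EE-DE with a C-C array. After removal of spots that were not well above background on all 4 arrays, 30737 probes (55.2%) remained, with a median difference of -0.01. At a threshold of 1.5-fold (0.58 on the log2 scale), 226 probes were higher (0.735%) and 186 lower (0.605%) in EE-DE, together 1.34% of the probes. For comparison, between the 2 arrays of the same pool a gap of 1.5-fold or more was seen for 585 probes (1.90%) in EE-DE and for 336 probes (1.09%) in C-C. Of the 412 probes, 208 had such a gap between the arrays of at least 1 of the pools. Dim probes held most of them. With the probes split by level into 4 classes of equal size, 284 lay in the dimmest class (3.70% of it) and 23 in the brightest (0.299%). A stricter count, at least 1.5-fold apart in all 4 pairings, left 67 probes (0.218%), 19 higher (0.0618%) and 48 lower (0.156%).

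**Figure D1:**
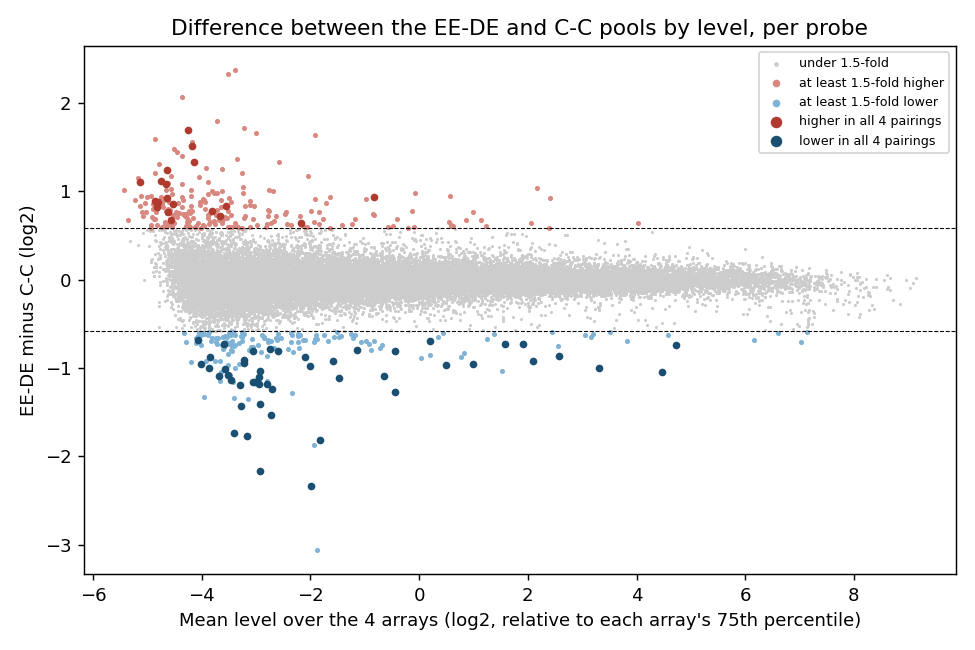
Each point is 1 of 30737 probes, with its mean level over the 4 arrays on the x axis and its EE-DE minus C-C difference on the y axis, both in log2 units. Dashed lines mark 1.5-fold, and darker points are the 19 higher and 48 lower probes that passed it in all 4 pairings. Most called probes are dim, and the lower ones reach further into the bright range.

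On the arrays, the first EE-DE array stood apart. Its negative control spots had a mean net signal of 65.8 intensity units against 19.2 to 21.4 on the other arrays, and 56.7% of its noncontrol spots were well above background against 68.0% to 70.6%. All 8 arrays lay on 1 slide, and the EE-DE and C-C arrays lay in different columns and rows of it, so that pool and slide position cannot be told apart. Of 12 reference genes none was 1.5-fold apart, and they lay between -0.15 (Ppia) and 0.19 (Gusb). Among markers of the labelled tissue, the lists of projection neurons and interneurons had median levels of 1.69 and 3.57. The list of olfactory ensheathing cells had a median level of 2.13, and its member Fabp7 read 6.78 to 6.92 on the 4 arrays. Lists of projection neurons, interneurons, neuroblasts, astrocytes, myelin, microglia and endothelium had median differences between -0.08 and 0.06, with no member past 1.5-fold. In such bulk tissue, fewer cells of a type and less RNA per cell cannot be told apart. The microglial genes ran from -0.28 (Olfml3) to 0.20 (Cd68, a lysosomal protein), those of myelin from -0.27 (Mobp) to 0.30 (Klk6), and those of endothelium from -0.12 (Pltp) to 0.32 (Kdr, a receptor of vascular growth factor). The astrocyte genes ran from -0.18 (Aqp4, the water channel) to 0.16 (Gja1), and those of neuroblasts from -0.26 (Prokr2) to 0.08 (Cd24a). The interneuron genes ran from -0.15 (Tshz1) to 0.12 (Ddc), and those of projection neurons from -0.11 (Eomes) to 0.12 (Slc17a6).

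Probe sequences are shown first because a feature shared by several of the lower probes lay in them. It was found after the values had been seen and is given as a description. Several probes that were lower in EE-DE carried a run of the triplet GAA near the 5′ end of the 60-base probe, among them the probes of Sdad1, a nucleolar protein of ribosome export, and Pinx1, an inhibitor of telomerase. A probe of Akap7, an anchor of protein kinase A, held its run from base 15 on. In the sequences below, from the array files, the run is in capitals. The Sdad1 probe with the run lies at chr5:92727219-92727278 on the minus strand of mm9, and the other Sdad1 probe at chr5:92713133-92713192. The Pinx1 probe lies at chr14:64538435-64538494 on the plus strand, the Akap7 probe with the run at chr10:25003766-25003825 on the minus strand, and the probe A_55_P1974780, which has no gene name in the files, at chr5:58899406-58899465 on the plus strand. The Sec61b probe, at chr4:47495923-47495982 on the plus strand, holds its run from base 38 on and is shown for contrast.
Sdad1, with the run: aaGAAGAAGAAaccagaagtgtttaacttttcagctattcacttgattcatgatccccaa
Sdad1, without a run: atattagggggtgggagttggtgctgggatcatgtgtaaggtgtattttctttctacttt
Pinx1: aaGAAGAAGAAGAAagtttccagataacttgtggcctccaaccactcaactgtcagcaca
Akap7, with the run: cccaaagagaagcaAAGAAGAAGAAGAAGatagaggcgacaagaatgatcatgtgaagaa
A_55_P1974780: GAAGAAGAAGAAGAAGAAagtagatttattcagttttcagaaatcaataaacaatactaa
Sec61b: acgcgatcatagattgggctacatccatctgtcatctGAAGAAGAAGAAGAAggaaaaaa

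The Sdad1 probe with the run read 0.21 and -0.42 in C-C and -1.28 and -1.10 in EE-DE, a difference of -1.09 [-1.50 to -0.68]. It was the only one of the 2 Sdad1 probes below the threshold. The probe without a run read 1.81 and 1.83 in C-C and 1.69 and 1.70 in EE-DE, a difference of -0.12 [-0.14 to -0.11]. Against C-C, the probe with the run differed by -1.14 in C-DE and by -0.75 in EE-C.

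Pinx1 has 1 probe on the array. It read 3.16 and 2.84 in C-C and 2.08 and 2.19 in EE-DE, a difference of -0.87 [-1.08 to -0.65], with -0.67 in C-DE and -0.70 in EE-C. Of the 3 Akap7 probes, the one with the run differed by -0.60 [-0.99 to -0.20] and the others by -0.11 and -0.08. The unnamed A_55_P1974780 read 5.15 and 4.84 in C-C and 3.88 and 4.02 in EE-DE, whereas the Sec61b probe differed by 0.01.

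Over all tested probes, 57 held a run of at least 9 bases of GAA that started within the first 10 bases. Their median difference was -0.47, and 17 were at least 1.5-fold lower (29.8%, against 0.605% of all probes), 0 higher. In 42 of them both EE-DE arrays lay below both C-C arrays, which was so for 24.8% of all probes. These probes share the repeat, so their values may not be independent. In the 4 pairings the median went from -0.63 to -0.24. The values differed by the length of the run. The 22 probes with a run of 9 to 11 bases, the class of the Sdad1 probe, had a median of -0.04 with 7 lower, the 10 with 12 to 20 bases -0.82 with 6 lower, and the 25 with 21 bases or more -0.49 with 4 lower. Where the run started further in, as in the Akap7 probe (120 probes), the median was -0.03 and 4 probes were lower. The 30560 probes without such a run had a median of -0.01. The 30 probes with a level of 6 or above and a run near the 5′ end had a median of -0.46, so the difference was not limited to dim probes. The same 57 probes had medians of -0.24 in C-DE and -0.47 in EE-C against the same C-C arrays, and the first C-C array read 0.25 above the second in the median. Without these 57 probes the count of lower probes was 169 in place of 186. The part of the probe sequence in the values of Sdad1, Pinx1 and Akap7 was not tested.

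**Figure D2:**
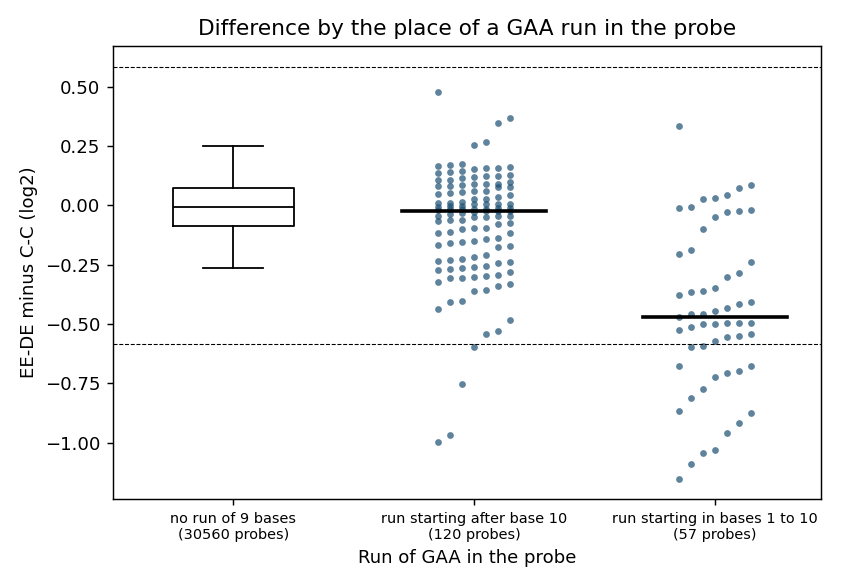
EE-DE minus C-C difference (log2, y axis) for probes without a GAA run of 9 bases (box of the middle 50%, whiskers from the 5th to the 95th percentile), with a run starting after base 10 and with a run starting in bases 1 to 10 (points, 1 per probe, with the median as a bar). The medians are -0.01, -0.03 and -0.47, and dashed lines mark 1.5-fold.

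**Figure D3:**
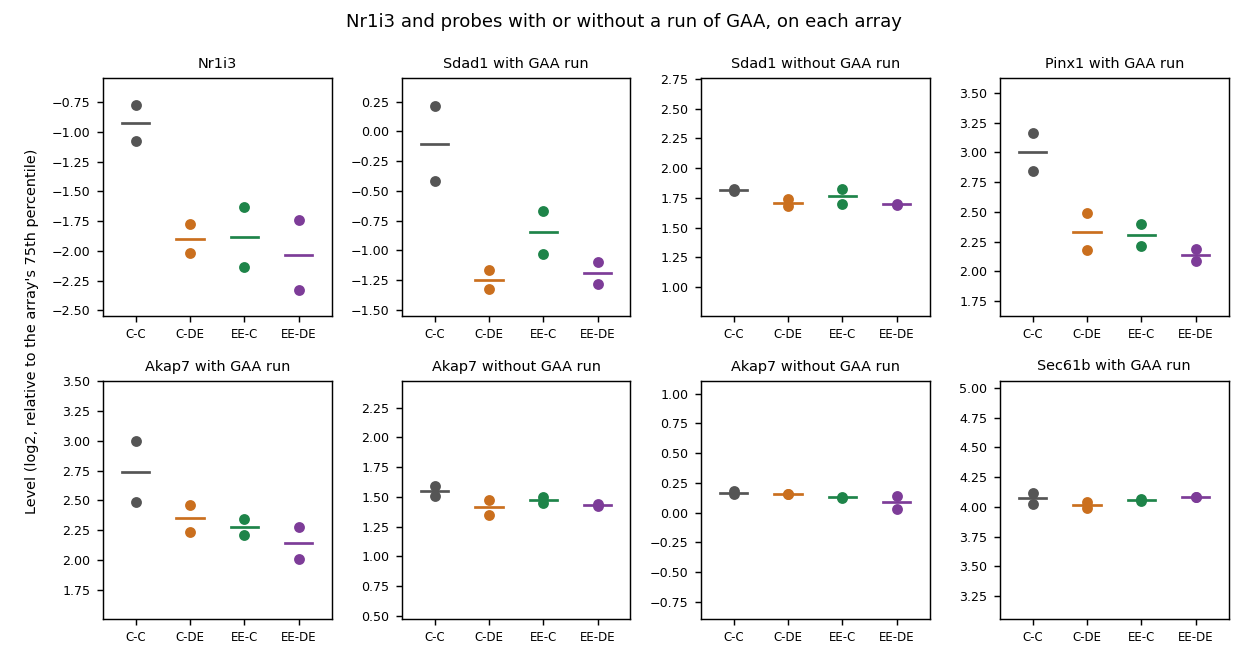
Level on each of the 8 arrays (log2 relative to the array's 75th percentile, y axis) for Nr1i3 and for probes of Sdad1, Pinx1, Akap7 and Sec61b, by pool on the x axis. Points are arrays and bars their mean. The Sdad1 and Akap7 probes without a run lie nearly level over the pools, and those with a run are highest in C-C.

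Of the 48 probes at least 1.5-fold lower in all 4 pairings, 13 carried a gene symbol other than a clone or locus name (such as BC, Gm or Rik names) and 5 a clone or locus name. Among these 5, BC048679 had the second lowest value of the 48, -2.16 [-2.68 to -1.64] or 4.48-fold, with -2.30 and -1.38 in C-C and -4.06 and -3.94 in EE-DE. It differed by -1.05 in C-DE, where the arrays read -1.55 and -4.24, and by 0.77 in EE-C. The others were Gm10372 at -1.17, Gm9519 at -0.96, 2900076A07Rik at -0.78 and 4933405E24Rik at -0.72. They were named after their values had been seen. Nr1i3, the constitutive androstane receptor that senses foreign compounds, read -0.77 and -1.08 in C-C and -2.33 and -1.74 in EE-DE. All EE-DE values lay below all C-C values, and the difference was -1.11 [-1.56 to -0.66], or 2.16-fold. It was -0.97 in C-DE and -0.96 in EE-C. Bpifa6, a secreted protein of the BPI fold family, had the lowest value, -2.33 [-3.32 to -1.34], with -1.44 and -0.20 in C-C and -3.52 and -2.78 in EE-DE. It also lay far apart within the C-DE pool (-0.63 and -3.31), and the difference in EE-C was 0.62.

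Pom121l2 differed by -1.73 [-2.42 to -1.04], with -1.57 in C-DE and -0.58 in EE-C. Alx4, a homeobox gene of craniofacial development, differed by -1.10. Vax2, a homeobox gene of the ventral eye, differed by -0.79. Dao, the D-amino acid oxidase, differed by -0.88, Folr4, now named Izumo1r, the egg's receptor for sperm, by -0.81, and Ino80e, a subunit of a chromatin remodeller, by -1.01. The other tested Ino80e probe differed by 0.02. Pom121l2, Alx4, Dao, Folr4 and Ino80e lay in the dimmest class, at mean levels of -3.41, -2.95, -3.85, -3.06 and -3.56. Among the processing alternatives the smallest difference was -0.33 for Dao, -0.29 for Folr4, -0.49 for Ino80e and -0.55 for Vax2. Pom121l2 and Alx4 stayed past 1.5-fold.

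Of the 13 symbols, 3 belonged to X-linked families known for germ cell or placental expression. Xlr4a read -3.22 and -1.89 in C-C and -4.02 and -3.95 in EE-DE, a difference of -1.43 [-2.13 to -0.72], and the C-C arrays lay further from each other than the EE-DE arrays. Rhox3a differed by -1.24 [-1.68 to -0.80] and Rhox4a was 2.00-fold lower [-1.39 to -0.61]. All 3 were dim, at mean levels of -3.27 (Xlr4a), -2.71 (Rhox3a) and -3.87 (Rhox4a). Among the processing alternatives the smallest difference of Rhox4a was -0.27. Looked up after these values were seen, all 4 tested Xlr probes (of 11 on the array) were at least 1.5-fold lower, at -1.43 to -0.70, and 2 of 6 tested Rhox probes (of 29) were, beside 0.605% of all probes. Members of these families resemble each other in sequence, so their probes may not be independent, and the ranges of both Xlr3b probes reached above 0. All 4 Xlr probes read 1.11 to 1.47 higher on the second C-C array than on the first. Without the second C-C or the second EE-DE array, 2 of the 4 were lower, those of Xlr4a and Xlr4b.

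Of the 19 probes higher in all 4 pairings, 4 carried such a gene symbol, and all 4 were dim. Trim43b, an embryonic TRIM protein, read -4.61 and -5.27 in C-C and -3.06 and -3.79 in EE-DE, a difference of 1.51 [0.82 to 2.21]. Stfa3, a cysteine protease inhibitor of neutrophils, differed by 1.34 [0.64 to 2.04]. The 9 detected genes of neutrophils and marrow had a median of -0.04, with Mpo, the myeloperoxidase, highest at 0.41 [-0.31 to 1.13], and the first EE-DE array read 0.75 above the second in their median. The median was -0.24 without the first EE-DE array and 0.32 without the second. None of the 9 passed the threshold, but Ngp was lower without the first EE-DE array, Mpo higher without the second, and Mpo and Retnlg higher without the first C-C array. Robo3, an axon guidance receptor, differed by 1.12 [1.03 to 1.21], whereas its other tested probe differed by -0.14. The first of these probes differed by 1.16 in C-DE and by 0.86 in EE-C. The olfactory receptor gene Olfr52 differed by 1.11 [0.89 to 1.33]. Another 3 carried a clone or locus name, 2610528J11Rik at 1.08, Gm10693 at 0.93 and Gm4098 at 0.67. The remaining 12 had only a transcript, probe or region name, and the highest of all 19, the transcript TC1626843, differed by 1.70 [1.35 to 2.04].

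Where a gene with a called probe had several tested probes, the others rarely passed. Of 33 such genes, 2 had another probe at least 1.5-fold apart in the same direction, and 31 had none.

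Some probes were well above background on both arrays of one pool and on neither of the other, 785 of them in C-C and 5 in EE-DE. With spots positive and significant in place of well above background, the counts were 1036 and 97. On the first EE-DE array fewer spots were above background, as given above, and the part of this in the count was not tested. For such a probe only a bound is known, from the brighter pool's mean over the other pool's detection limit or own signal. The bound reached 1.5-fold for 22 of the C-C probes and all 5 EE-DE probes. A probe of Ttbk1, a neuronal kinase of tau, was at least 16.6-fold lower in EE-DE, at -1.23 and -1.35 in C-C and -6.67 and -6.39 in EE-DE. The C-DE and EE-C arrays read -6.79 to -6.00. The other Ttbk1 probe read 1.96 on both C-C arrays and 1.93 and 1.80 in EE-DE. A probe of Nlrp3, an inflammasome sensor, was at least 2.88-fold lower, but the C-C arrays read -5.14 and -2.50, and the other Nlrp3 probe differed by -0.13. Krtap6-1, Olfr324 and Olfr100 were at least 1.77-fold, 1.73-fold and 1.67-fold lower. In the other direction, a probe of Tmem5 was at least 3.86-fold and one of Gadl1 at least 2.90-fold higher. Both bounds rest mostly on the first EE-DE array. The Tmem5 probe read -2.57 and -5.40 in EE-DE against -5.93 on both C-C arrays, and the Gadl1 probe -3.76 and -5.34 against -6.11 and -6.21. The other Tmem5 probe differed by -0.02, and the other Gadl1 probes by 0.13 and 0.37, the second of them not above background on all arrays.

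Interferon-stimulated genes were higher in EE-DE more often than they were lower. Of 36 listed genes 35 were detected, 34 lay above 0, 3 were at least 1.5-fold higher (0.735% of all probes were) and 0 lower, and the median was 0.30 against -0.01 over all probes. Ifit3, which binds viral RNA, read 0.58 and 0.66 in C-C and 1.57 and 1.19 in EE-DE, a difference of 0.76 [0.54 to 0.99]. Ifi27l2a differed by 0.64 [0.34 to 0.94] and Oasl2 by 0.61 [0.31 to 0.91]. Both arrays of EE-DE lay above both of C-C for each of these genes and for 22 of the 35, against 22.5% of all probes.

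The nucleotide kinase Cmpk2 was the lowest member, at -0.03. The first EE-DE array read 0.32 above the second in the median of the list, and with the second EE-DE array alone the median was 0.12 and 0 genes passed the threshold. Without the second EE-DE array 14 passed, and without the first or the second C-C array 2 and 4. The same genes had medians of 0.23 in C-DE and 0.16 in EE-C. Among 20 detected chemokines and cytokines (of 26), 1 was past the threshold, beside 1.34% of all probes. It was not past it without the first EE-DE or the second C-C array, and 2 were without the other array of either pool. Cxcl10, an interferon-induced chemokine, read -1.85 and -2.01 in C-C and -1.08 and -1.59 in EE-DE, a difference of 0.59 [0.25 to 0.93], with 0.74 in C-DE and 0.40 in EE-C. The median of the list was 0.05, and Cxcl9 was lowest at -0.25.

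The promoter of Ifit3 is shown because it carries the core of the interferon-stimulated response element (GAAA on both sides of a gap of 2 bases), in capitals. It lies at chr19:34583279-34583578 on the plus strand of GRCm38.p6, from RefSeq, with 250 bases before and 50 after the start. The core stood on either strand in the promoters of 3.99% of 27025 genes. Only 25 of the 35 detected genes matched a promoter entry, a smaller part than of the lists below, so that no share or split by the core is given for this list.
Ifit3 promoter: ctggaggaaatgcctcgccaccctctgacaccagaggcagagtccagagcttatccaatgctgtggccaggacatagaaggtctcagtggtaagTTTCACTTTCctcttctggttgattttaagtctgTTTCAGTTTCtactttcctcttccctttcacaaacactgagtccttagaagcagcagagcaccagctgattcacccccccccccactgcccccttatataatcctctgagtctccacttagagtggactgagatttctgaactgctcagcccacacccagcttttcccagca

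Immediate early genes gave the next shift. Of 31 listed genes 30 were detected, 27 lay above 0, 4 were at least 1.5-fold higher (0.735% of all probes were), 0 lower, and the median was 0.23. In 14 of the 30 both EE-DE arrays lay above both C-C arrays, against 22.5% of all probes. Nr4a3, an orphan nuclear receptor, read -5.32 and -5.64 in C-C and -4.50 and -4.94 in EE-DE, a difference of 0.76 [0.38 to 1.14], with -0.12 in C-DE and -0.02 in EE-C. It was near the bottom of the tested range, at a mean level of -5.10. Of the 9 processing alternatives that kept Nr4a3, 6 had it past the threshold. Atf3, a stress-induced transcription factor, differed by 0.69 [0.50 to 0.87] and Btg2, an antiproliferative gene, by 0.60 [0.35 to 0.85]. Both differed by 0.22 in C-DE and by 0.44 in EE-C. The list had medians of 0.07 in C-DE and 0.15 in EE-C.

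Dusp5, a phosphatase of the ERK kinases, differed by 0.74, but its EE-DE arrays read -1.45 and -2.73. Fos, the classical marker of activity, differed by 0.49 with overlapping arrays, and Homer1 was lowest at -0.10. In the median, the first EE-DE array read 0.21 above the second, and with the second alone the shift was 0.11 and 0 genes passed the threshold. Without the second EE-DE array or the first C-C array 7 passed, and without the second C-C array 3. The letters TGACG, part of the cyclic AMP response element TGACGTCA, stood on either strand in 19 of 24 matched promoters of the 30 genes and in 23.0% of all promoters. The 19 genes had a median difference of 0.28 and the other 5 of 0.03, a description over few genes. The Btg2 promoter, at chr1:134079106-134079405 on the minus strand of GRCm38.p6, is shown because it carries the full element, with the matches to TGACG in capitals.
Btg2 promoter: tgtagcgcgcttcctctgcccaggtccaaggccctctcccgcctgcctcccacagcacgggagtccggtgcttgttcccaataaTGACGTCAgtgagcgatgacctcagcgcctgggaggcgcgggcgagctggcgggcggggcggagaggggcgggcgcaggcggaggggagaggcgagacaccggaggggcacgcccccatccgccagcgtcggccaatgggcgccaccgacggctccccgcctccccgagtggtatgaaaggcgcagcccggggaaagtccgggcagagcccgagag

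Clock genes that peak together with Dbp had a median of 0.18 over all 10 genes, with 8 above 0, both EE-DE arrays above both C-C arrays in 5 (22.5% of all probes), and none past the threshold by its brightest probe (Dbp and Gm129 passed it without the first EE-DE array). Dbp, a transcription factor of circadian output, read 4.01 and 4.02 in C-C and 4.49 and 4.62 in EE-DE, a difference of 0.54 [0.46 to 0.61], and its dimmer probe differed by 0.64. Gm129, now named Ciart, a repressor of the clock, differed by 0.56 [0.51 to 0.61]. In both genes the arrays of a pool lay close together, and the difference was 0.01 and 0.07 in C-DE, and 0.70 and 0.53 in EE-C. Of 5 genes in antiphase, all lay below 0, with Cry1 at -0.51 [-0.74 to -0.28] and Arntl, the partner of Clock, at -0.20 [-0.27 to -0.13]. None passed the threshold, but Cry1 did without the second EE-DE array. The hour of death was not used here. The E-box CACGTG stood in 4 of 9 matched promoters and in 8.09% of all. The 4 genes had a median difference of 0.08 and the other 5 of 0.26, and the Dbp promoter held no match. The Ciart promoter, at chr3:95882179-95882478 on the minus strand of GRCm38.p6, holds 3, in capitals.
Ciart promoter: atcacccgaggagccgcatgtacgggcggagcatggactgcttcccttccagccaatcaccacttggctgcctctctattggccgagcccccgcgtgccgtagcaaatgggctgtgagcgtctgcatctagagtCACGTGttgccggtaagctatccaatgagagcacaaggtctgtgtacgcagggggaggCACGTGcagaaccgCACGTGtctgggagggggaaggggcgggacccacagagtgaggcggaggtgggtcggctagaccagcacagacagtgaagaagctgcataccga

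**Figure D4:**
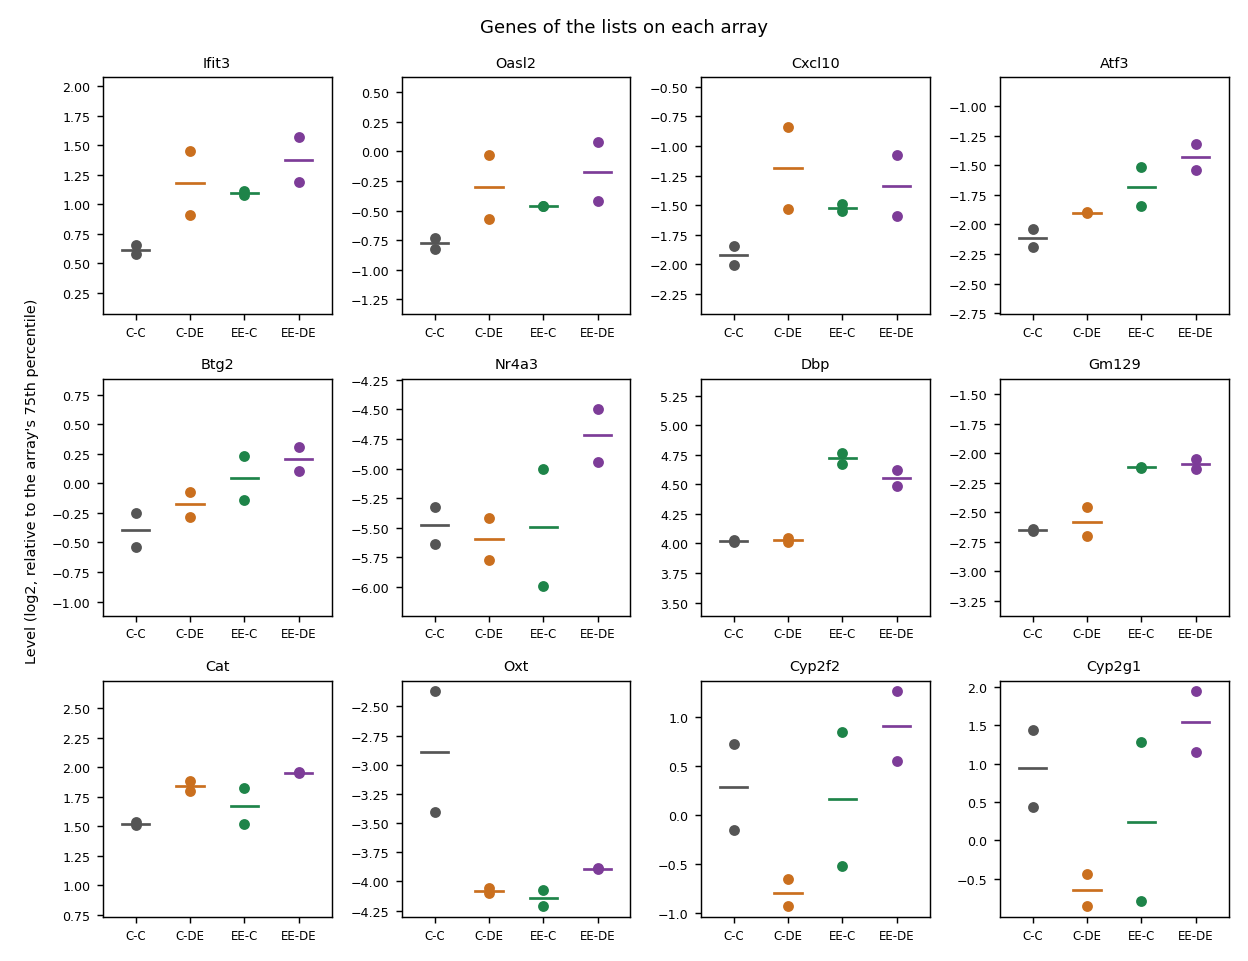
Level on each array (log2 relative to the array's 75th percentile, y axis) by pool (x axis) for 12 genes of the lists. Points are arrays, and bars their mean. Dbp and Gm129 are higher in both EE pools, Oxt is highest in C-C, and the 2 arrays of a pool lie far apart for Cyp2f2 and Cyp2g1.

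Of 16 detected targets of the aryl hydrocarbon receptor and Nrf2, which respond to combustion products and oxidants, none passed 1.5-fold, and the median was 0.07. Aldh3a1, an aldehyde dehydrogenase, was highest at 0.35 with overlapping arrays (it passed 1.5-fold without the first EE-DE or the first C-C array), Nqo1, a quinone reductase, was at 0.27 [0.17 to 0.37], and Gclm was lowest at -0.14. Hmox1, the heme oxygenase, differed by 0.04. Among 15 antioxidant enzymes, Cat, the catalase, read 1.54 and 1.51 in C-C and 1.95 and 1.95 in EE-DE, a difference of 0.43 [0.41 to 0.45], and the median was 0.02. Of 16 glucocorticoid-responsive genes, Hif3a was highest at 0.55 [0.13 to 0.98] and passed the threshold without the first EE-DE or the first C-C array. Chaperones and genes of endoplasmic reticulum stress had medians of -0.00 and -0.08 with none past the threshold.

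Among 19 detected neuropeptide precursors, Oxt, which encodes oxytocin, was 2.00-fold lower and the 1 gene past the threshold, beside 1.34% of all probes, though not without the first C-C array. It read -2.37 and -3.40 in C-C and -3.88 and -3.90 in EE-DE, a difference of -1.003 [-1.53 to -0.48], and -1.19 in C-DE and -1.26 in EE-C. The C-C arrays lay further from each other than the EE-DE arrays did, and both lay above all other arrays. Sst, which encodes somatostatin, was highest at 0.30, and the median of the list was 0.00.

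Markers of the mucosa's supporting cells and glands differed between arrays of the same pool. Of 19 listed genes 14 were detected, 2 were higher (Cyp2f2 0.62 and Cyp2g1 0.60, cytochromes P450 of the mucosa), 2 lower (Bpifa6 -2.33 and Bpifb3 -0.60), beside 0.735% and 0.605% of all probes, and the median was 0.37. Without the first EE-DE array 10 were higher and 1 lower, and without the first C-C array 11 and 1. Without the second EE-DE array 0 were higher and 2 lower, and without the second C-C array 0 and 3. Cyp2f2 read 0.73 and -0.15 in C-C and 0.55 and 1.26 in EE-DE, so that the pools overlapped. In the median of the list, the first C-C array read 0.80 above the second and the first EE-DE array 0.71 below the second. Over the 4 pairings the median went from -0.39 to 1.12. Against C-C, the same genes had medians of -1.17 in C-DE and -0.32 in EE-C. Olfactory sensory neuron genes, whose axons end in the bulb, had a median of 0.07, which went from -0.10 to 0.31 over the 4 pairings, with S100a5, a calcium-binding protein of these neurons, highest at 0.35 and Adcy3 lowest at -0.08. None passed the threshold, but Cnga4 did without the first C-C array.

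A last list held the genes that were also followed by quantitative RT-PCR. They were chosen by the study with these arrays in hand, so their counts are no independent evidence of a direction. By RT-PCR of individual mice, the paper reported significant differences between C-C and EE-DE for Dbp and Sdad1 (Tukey-Kramer method). It marked none between these 2 groups for the other genes. Of its 11 genes, Cyp2f2, Cxcl10 and Fam13c were at least 1.5-fold higher and Nr1i3 lower, beside 0.735% and 0.605% of all probes. The count of higher genes was 7 without the first EE-DE array, 6 without the first C-C array and 1 without the second array of either pool. Fam13c differed by 0.59 [0.48 to 0.69] by its brighter probe and by 0.02 by the other. Mslnl, Krt18, Umodl1 and Aqp3, which are on the mucosa list too, lay at 0.47, 0.37, 0.36 and 0.32 with overlapping pools. Chmp4b, a subunit of the membrane-remodelling ESCRT machinery, differed by 0.11, and Sdad1 by -0.12 at its brightest probe. The median of the list was 0.37, and it went from -0.12 to 0.60 over the 4 pairings. With 1 array left out it was 0.13 to 0.67.

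**Figure D5:**
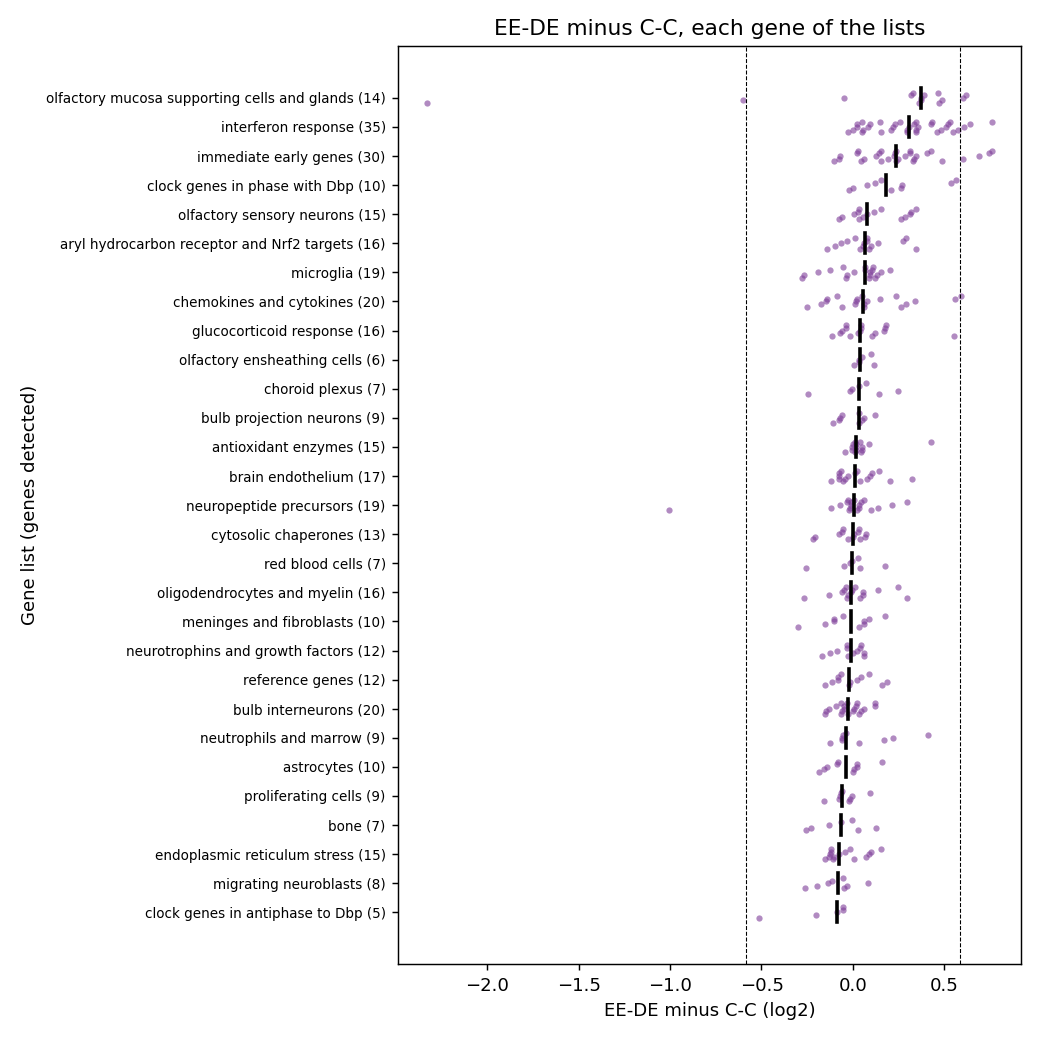
EE-DE minus C-C difference (log2, x axis) of each detected gene, by its brightest probe, in the 29 lists other than the RT-PCR list (y axis, with the number of genes detected). Bars are medians and dashed lines mark 1.5-fold. The lists of mucosa, interferon response, immediate early genes and clock genes in phase with Dbp have the highest medians of these 29, 0.37, 0.30, 0.23 and 0.18.

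Over the 29 lists without that of the RT-PCR, 398 of 436 listed genes were detected, of which 10 were at least 1.5-fold higher and 3 lower (3.27%, against 1.34% of all probes). These 13 genes lay in 5 of the 29 lists. The members were chosen with earlier results of these data known. Ifit3, Oasl2, Ifi27l2a and Cxcl10, among others, had been reported by the study from these same arrays. This share, and the counts of single lists, are therefore no independent evidence of a shift.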

How the data were processed

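Olfactory bulb RNA was measured on one-colour 8x60K arrays, 2 per pool. The authors deposited scanner intensity values made with Agilent Feature Extraction 10.7.3.1, per the file headers and processing notes, with background subtracted and no scaling between arrays. A series table of log2 values, scaled by the authors to the 75th percentile and centred on each probe's median, served as an alternative.

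Here, each array's processed signals were divided by the 75th percentile over its noncontrol spots and taken to log2. Spots well above background on the 4 arrays and without an outlier flag were kept, and spots of a probe were averaged (33196 spots, 30737 probes). The number of arrays limits the precision. With 1 pool per group no p-value was computed. Probes of a gene were represented by the brightest. Named were up to 15 higher and 15 lower genes past 1.5-fold in all 4 pairings, list members past 1.5-fold or otherwise the highest and lowest, the genes of the RT-PCR, and up to 5 genes in each direction detected in one pool only. The members and lists were chosen with earlier results of these data known.

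Gene names are those of the files. Of 20154 probes with a RefSeq accession, 19450 matched the later annotation GRCm38.p6. Its coordinates were used for promoters only, and probe coordinates are mm9. The calling was tested on simulated data. Alternatives changed the background correction (normexp with an offset of 50), scaling, filter, threshold and arrays. Python 3.11.15, numpy 2.4.6, pandas 2.3.3, R 4.3.3 and limma 3.58.1 were used.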

Additional observations from a re-analysis of the deposited data

Results flagged for a closer look

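Negative control spots, which carry no mouse sequence and entered no comparison, had a mean net signal of 65.8 intensity units on the first EE-DE array. On the C-C arrays they read 21.4 and 20.1, and on the second EE-DE array 20.9.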

How the results depend on the processing

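The 412 probes at least 1.5-fold apart (226 higher and 186 lower) became 130 (58 and 72) with normexp, 2065 (966 and 1099) with spots positive and significant, 13181 (10722 and 2459) without a filter on dim spots, 128 (49 and 79) in the brighter 75% of probes, 184 with accessions only and 80 at a threshold of 2-fold. The 67 probes apart in all 4 pairings (19 higher and 48 lower) became 22 (4 and 18), 382 (180 and 202), 1679 (1215 and 464), 23 (2 and 21), 24 and 8 under the same settings. Leaving out 1 array gave 436 to 683 and 194 to 421, the second count over the 2 pairings left. The 683 (307 and 376) came without the second EE-DE array. Without the first, the 2 counts were 436 (257 and 179) and 219 (131 and 88), so that the higher probes outnumbered the lower in the second. Without the first C-C array they were 441 (296 and 145) and 194 (113 and 81). With the second C-C array left out they were 603 (271 and 332) and 321 (113 and 208). The second count was 421 (211 and 210) without the second EE-DE array. The 790 probes above background in 1 pool only (5 in EE-DE) became 1133 (97 in EE-DE) with spots positive and significant and 16 with a bound of at least 2-fold. The 13 list genes became 5 with normexp and 25 without a filter on dim spots, and 14 to 29 with an array left out (29 without the second EE-DE array, 28 without the first C-C array). The interferon median was 0.12 to 0.49 and that of clock genes in phase with Dbp 0.13 to 0.24 with an array left out. The cause of these shifts was not tested. Mucosa medians went from -0.05 to 0.78, and without the second C-C array the median was below 0. Of 45 named probes past the threshold, 19 stayed past it under all 11 processing alternatives that kept them, and none changed sign. Those past it in all 4 pairings cannot fall short of it when an array is left out. Of the other 18, Xlr4b stayed past it whichever array was left out, and each of the others fell short without at least 1. Leaving out the probes with a GAA run, chosen after seeing the data, gave 395 and 62. No paired analysis was possible because no test was made, and shared numbers only name technical arrays of a pool.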
